A study of Mus musculus with 29 samples.

Results

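The interaction of C70 pretreatment with the first day of adipogenic induction was examined in 3T3-L1 cells, one clonal mouse fibroblast line that turns into white adipocytes in culture. C70 is an inhibitor of the KDM5 histone demethylases, enzymes that remove methyl groups from lysine 4 of histone H3. Cells received 10 µM C70 or the vehicle DMSO from day -2 to day 0, and the induction medium with dexamethasone, insulin, IBMX and a PPARγ agonist followed from day 0. The comparison was (day 1 C70 minus day 0 C70) minus (day 1 vehicle minus day 0 vehicle) on the log2 scale, so that each arm was measured against its own start. It used 14 of the 29 RNA-seq samples, with 3 vehicle and 4 C70 replicates at each day, and all 11959 genes of the table. The medium changed and C70 was removed at the same time, so the end of the treatment and the start of induction cannot be told apart in the C70 arm.

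As background, induction starts with a burst of signals. Dexamethasone activates the glucocorticoid receptor, IBMX raises cyclic AMP by blocking phosphodiesterases, and insulin acts through its own and the IGF1 receptor. C/EBPβ and C/EBPδ appear first and turn on Pparg and Cebpa, the factors that drive lipid genes such as Fabp4, Lpl and Adipoq. During the same hours confluent 3T3-L1 cells re-enter the cell cycle, and genes of the fibroblast state, such as those for matrix proteins, are shut down.

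Total counts of the 14 libraries ranged from 16433737 to 24037170, and the common biological coefficient of variation over all 29 samples was 0.0594. A principal component that separated the days held 83.2% of the variance of the 14 samples. On it, C70 samples moved 91.2% of the distance that vehicle samples moved. Of the 15 markers of fibroblasts and preadipocytes, 13 are in the table, and their summed level at day 0 was 55358 to 58122 CPM in vehicle and 57118 to 62530 after C70. At day 1 it was 21450 to 22380 and 24493 to 26315. By the thresholds given below, C70 was higher in 3 of the 13 and lower in 1 at day 0. Among all genes the shares were 5.89% and 3.09%. C70 was higher in 8 and lower in 1 at day 1, against 13.6% and 7.8% of all genes. At day 2 it was higher in 12 and lower in 0, against 16.9% and 13.6%. In the interaction 5 were above 0 and 0 below, against 8.68% and 5.23% of all genes. CPM is the normalised read count of a gene on a common library scale. Of 12 macrophage markers 2 are in the table, Cd14 and Cd68, and Cd68 was at 1.13, 1.14 and 1.67 CPM in day 0 vehicle and 18.7, 18.9, 19.8 and 18.96 in day 0 C70. Cd14 was at 6.69, 7.17 and 7.24 CPM in day 0 vehicle and 8.17, 7.15, 6.70 and 6.77 in day 0 C70, which overlap. The labels do not say that replicates were separate cultures, so the P values measure the spread between these samples, which may be technical. In bulk RNA, fewer cells of a kind and less RNA per cell cannot be told apart.

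Sterol, mitotic, replication and interferon genes are shown first by sequence, because start regions in these lists often hold letters that known regulators read. Many members of each had an interaction of the same sign. By the thresholds given below, 41 of 59 S phase, 50 of 74 G2/M, 7 of 25 cholesterol synthesis and 15 of 37 interferon-stimulated genes were not called. Promoters came from RefSeq on build GRCm38.p6, from 250 bases before to 50 bases after each start, and 9007 of the 11959 genes had at least 1. A window of 100 bases is printed for each gene, and capitals mark the motif named for that gene below, on either strand. Matches to the other motifs searched, such as CCAAT in Plk1, Mcm3 and Ifi203, stay in lower case. The sterol and cell cycle genes below had a response that was lower after C70 (interaction below 0), and the interferon genes a fall that was smaller (interaction above 0).
Cyp51, chr5:4104675-4104774, minus strand: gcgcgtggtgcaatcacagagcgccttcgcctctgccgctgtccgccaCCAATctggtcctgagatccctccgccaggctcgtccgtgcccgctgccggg
Msmo1, chr8:64733687-64733786, minus strand: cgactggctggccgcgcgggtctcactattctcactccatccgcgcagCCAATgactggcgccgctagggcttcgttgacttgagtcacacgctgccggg
Plk1, chr7:122159385-122159484, plus strand: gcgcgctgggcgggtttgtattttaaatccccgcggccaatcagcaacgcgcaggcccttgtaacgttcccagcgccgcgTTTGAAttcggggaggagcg
Mcm3, chr1:20820263-20820362, minus strand: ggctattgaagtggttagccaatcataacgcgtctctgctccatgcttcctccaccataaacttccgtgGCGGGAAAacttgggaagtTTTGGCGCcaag
Mcm5, chr8:75109310-75109409, plus strand: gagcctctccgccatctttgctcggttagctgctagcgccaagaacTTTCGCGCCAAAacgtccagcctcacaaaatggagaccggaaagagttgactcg
Stat2, chr10:128270248-128270347, plus strand: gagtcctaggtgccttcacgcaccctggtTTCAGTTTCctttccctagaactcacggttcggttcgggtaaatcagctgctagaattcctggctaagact
Ifi44, chr3:151749861-151749960, minus strand: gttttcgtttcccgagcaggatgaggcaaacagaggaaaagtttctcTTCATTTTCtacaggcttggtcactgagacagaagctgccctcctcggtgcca
Ifi203, chr1:173942474-173942573, minus strand: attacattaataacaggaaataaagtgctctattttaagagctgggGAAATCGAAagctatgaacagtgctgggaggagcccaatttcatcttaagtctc
In Cyp51 and Msmo1, enzymes of cholesterol synthesis, the capitals are a CCAAT box (CCAAT), the site of the factor NF-Y. Of cholesterol synthesis genes with a promoter, 16 of 18 (88.9%) held one, against 37.4% of all promoters. The box was also in 48 of 64 (75.0%) of G2/M genes and 29 of 45 (64.4%) of S phase genes. Of interferon-stimulated genes 12 of 28 (42.9%) held one. In Plk1, the mitotic kinase, the capitals are the cell cycle genes homology region or CHR (TTTGAA or TTCGAA). It was in 47 of 64 (73.4%) of G2/M genes and 19.2% of all promoters. The capitals of Mcm3 and Mcm5, parts of the replicative helicase, mark E2F sites (TTTCCCGC, TTTGGCGC or TTTCGCGC). These were found in 19 of 45 (42.2%) of S phase genes and in 1.84% of all promoters. Letters of the interferon-stimulated response element (GAAANNGAA, chosen after the data were seen) are marked in Stat2, Ifi44 and 1 of 2 promoters of Ifi203, the other of which holds no match, and were in 14 of 28 (50%) of interferon-stimulated genes and 8.56% of all promoters. A sterol element (TCACNCCAC) was in 1 of 18 (5.56%) of cholesterol synthesis genes and 1.24% of all promoters, and a cAMP element (TGACGTCA) in 18 of 785 (2.29%) of genes with an interaction above 0, 13 of 484 (2.69%) of those below 0 and 1.79% of all promoters. Shares of genes count a gene with a match in any of its promoters, whereas shares of all promoters count each promoter. Among genes of the table with a promoter, the CCAAT box was in 43.6%, the CHR in 16.1%, an E2F site in 4.26%, the sterol element in 1.31%, the cAMP element in 3.67%, more than in either group with an interaction, and the interferon letters in 8.28%. In genes with an interaction below 0 and above 0, the CCAAT box was in 52.5% and 44.5% and the CHR in 18.4% and 16.7%. An E2F site was in 6.4% and 2.8%, the sterol element in 1.45% and 1.91%, and the interferon letters in 6.61% and 13.5%. A match describes these windows and does not show binding.

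The first day of induction changed most of the genes measured in both arms, and a minority responded to a different extent after C70. A gene was called where the adjusted P value was below 0.05 and the log2 fold change above 0.32 in size. By this rule 3129 genes (26.2%) rose and 3342 (27.9%) fell from day 0 to day 1 in vehicle. After C70, 3089 (25.8%) rose and 3207 (26.8%) fell. The interaction passed the same thresholds for 1663 genes. It was above 0 for 1038 (8.68% of all genes) and below 0 for 625 (5.23%), and its median over all genes was 0.0019. The size was modest for most, with a median of 0.52 on the log2 scale among called genes and a fold over 2 for 190 of them. Of genes that rose in vehicle, 82.7% had no called interaction, and of those that fell, 76.5% had none.

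Called genes were sorted by their response in each arm. A vehicle response is named blunted where the interaction was opposite to it and enhanced where both had the same sign. A fall seen in vehicle was blunted by C70 in 669 genes (40.2% of the 1663) and a rise was blunted in 384 (23.1%). A rise was enhanced in 153 genes and a fall in 93. In 28 genes the response turned, being called in opposite directions in the arms. A rise called only after C70 (gained rise) was found for 146 genes and a gained fall for 91, while 99 genes had no called response in either arm. In the blunted falls the median response was -1.42 in vehicle and -0.79 after C70, and in 184 of them the C70 fall was not called. In the blunted rises the medians were 0.89 and 0.39, and the C70 rise was not called in 167. The plot of both responses for all genes shows the classes on either side of the line of equality. The classes are not independent of the interaction, because the vehicle response enters it with a minus sign and chance error in vehicle samples pushes genes toward a blunted class. Without reference to calls of either response, the vehicle response was the larger in size for 1119 of the 1663 genes (67.3%), which the same chance error also favours.

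**Figure D1:**
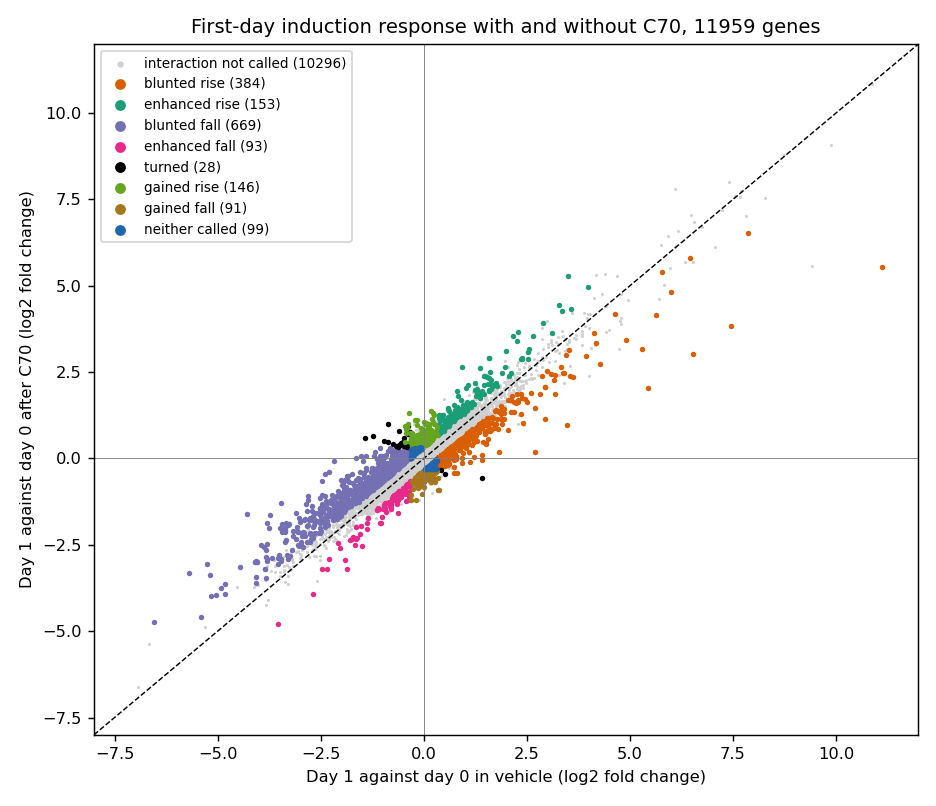
Log2 fold change from day 0 to day 1 in vehicle (horizontal axis) and after C70 (vertical axis), 1 point per gene, coloured by response class with the number of genes. The 669 blunted falls lie above the dashed line of equality at the lower left and the 384 blunted rises below it at the right.

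A difference in response can arise at day 0 or at day 1. Of the 1663 genes, 936 differed between C70 and vehicle at day 1 but not at day 0, 158 at day 0 only, 184 at both days in the same direction, 38 at both in opposite directions and 347 at neither by the same thresholds. Among all genes, C70 against vehicle called 5.89% higher and 3.09% lower at day 0, and 13.6% higher and 7.8% lower at day 1. So for most of the called genes the arms started alike by this test and were apart after 1 day. Since the log2 scale compares ratios, a gene that starts higher after C70 can fall less in ratio and yet lose more counts. The difference of differences in mean CPM had the opposite sign to the log2 interaction in 104 genes (6.25%), 96 of them blunted falls. Cdsn, which encodes corneodesmosin, is an example with 77.8, 81.7 and 73.9 CPM at day 0 and 1.00, 0.564 and 0.895 at day 1 in vehicle, against 171, 190.5, 169 and 167 at day 0 and 7.14, 6.10, 5.80 and 7.11 at day 1 after C70. Its interaction was 1.82 (SE 0.18, adjusted P = 1.47e-08), while in CPM the C70 arm lost more.

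Day 2 samples carry no weight in the interaction contrast, though they enter the shared estimate of spread, and give a measure from other libraries. Of the 1038 genes with an interaction above 0, 759 (73.1%) were higher in C70 than vehicle at day 2 and 10 were lower, against 16.9% higher and 13.6% lower among all genes. Of the 625 genes below 0, 330 (52.8%) were lower at day 2 and 29 higher. In the plot of C70 effects by day, the blunted falls had a median effect of 0.01 at day 0, 0.62 at day 1 and 0.81 at day 2 on the log2 scale. Blunted rises went from 0.10 to -0.40 and -0.34.

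**Figure D2:**
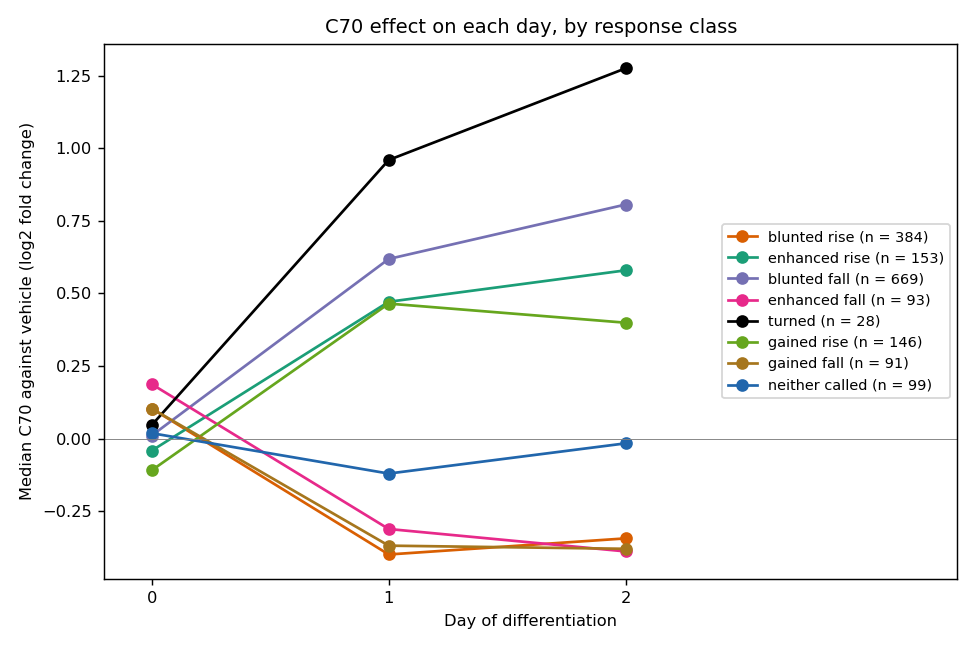
Median log2 fold change of C70 against vehicle (vertical axis) at days 0, 1 and 2 (horizontal axis) for each response class, 1 line per class. Medians of blunted falls, enhanced rises, gained rises and turned genes are above 0 at days 1 and 2, and those of blunted rises, enhanced falls and gained falls are below 0. Days 0 and 1 define the classes and day 2 does not.

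Some extracellular matrix genes held large interactions above 0, most often with falls that were smaller after C70. Of 41 matrix protein and integrin genes in the table, 13 had an interaction above 0 and 2 below, and 26 were not called. Among all genes 8.68% were above and 5.23% below. The 13 were 8 blunted falls, 2 turned genes, 1 enhanced rise, 1 gained rise and 1 with no called response in either arm. The list had a median response of -0.74 in vehicle and -0.45 after C70. Spp1, which encodes the secreted phosphoprotein osteopontin (GRCm38 chr5:104435118-104441050), had 1257, 1372 and 1248 CPM at day 0 and 75.6, 63.6 and 59.4 at day 1 in vehicle, against 1108, 1021, 1113 and 1108 at day 0 and 361, 371, 337 and 367 at day 1 after C70. Vehicle samples thus fell to a level that no C70 sample reached, and the day 0 groups did not overlap either, with C70 the lower. The interaction of Spp1 was 2.69 (SE 0.097, adjusted P = 1.54e-18). Decorin (Dcn) and osteoglycin (Ogn) are small proteoglycans that bind collagen. For Dcn the values were 449, 349 and 474 CPM at day 0 and 77.3, 91.1 and 88.4 at day 1 in vehicle, against 349, 369, 388 and 395 at day 0 and 289, 261, 313 and 280.4 at day 1 after C70, an interaction of 1.92 (SE 0.12, adjusted P = 1.13e-12). Ogn had 157, 132 and 157 CPM at day 0 and 11.2, 10.7 and 12.01 at day 1 in vehicle, against 161, 141, 156 and 164 at day 0 and 55.9, 41.5, 51.5 and 51 at day 1 after C70, and its interaction was 2.08 (SE 0.14, adjusted P = 8.62e-12). Lumican (Lum) differed in that C70 had lowered it before induction, with 17.7 to 20.03 CPM against 30.1 to 42.8 in vehicle, and the C70 samples were then above vehicle at day 1 (10.9 to 18.9 against 6.25 to 8.08). The 2 members below 0 were Igfbp4, a binding protein of IGFs, at -0.64, and the integrin subunit Itga6 at -0.62. Both were named after their values were seen. C70 samples of Itga6 were above vehicle at both days. They had 70.6 to 76.3 CPM against 38.2 to 47.5 at day 0 and 74.0 to 76.9 against 65.6 to 71.3 at day 1.

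Matrix proteases and their inhibitors behaved alike in number, with 10 of 30 above 0 and 2 below (median response -0.32 in vehicle and -0.01 after C70). Serpine2, a protease inhibitor, fell by 2.21 in vehicle and 1.27 after C70 on the log2 scale. Plat, the tissue plasminogen activator, had an interaction of 1.15 (SE 0.13, adjusted P = 1.31e-07) and the collagenase Mmp13 one of 1.30 (SE 0.17, adjusted P = 1.41e-06). Adamts4, an aggrecan-cleaving protease, turned: it went from 44.98–49.7 to 33.1–34.2 CPM in vehicle and from 44.9–52.4 to 63.8–70.2 after C70. Collagens and their processing enzymes were split, 7 above 0 and 5 below of 39. The crosslinking enzyme Lox was among the blunted falls (interaction 0.62, SE 0.082, adjusted P = 1.84e-06), Col27a1 turned (-0.45 in vehicle, 0.35 after C70) and Col5a2 fell further after C70 (interaction -0.47, SE 0.068, adjusted P = 7.44e-06). Of 29 actin and contractile genes, 9 were above 0 and 1 below, the latter 0 without replicate 3 of day 0 or day 1 vehicle or replicate 1 or 2 of day 1 C70. Tagln, a smooth muscle actin-binding protein, had 16.6, 20.7 and 15.5 CPM at day 0 and 1.41, 0.939 and 1.04 at day 1 in vehicle, against 38.4, 30.7, 32.1 and 34.1 at day 0 and 6.58, 4.92, 6.10 and 6.28 at day 1 after C70. Smtn, which encodes smoothelin, turned from a fall of 0.59 in vehicle to a rise of 0.35 after C70, and the myosin light chain kinase Mylk had an interaction of 0.67 (SE 0.084, adjusted P = 6e-07).

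**Figure D3:**
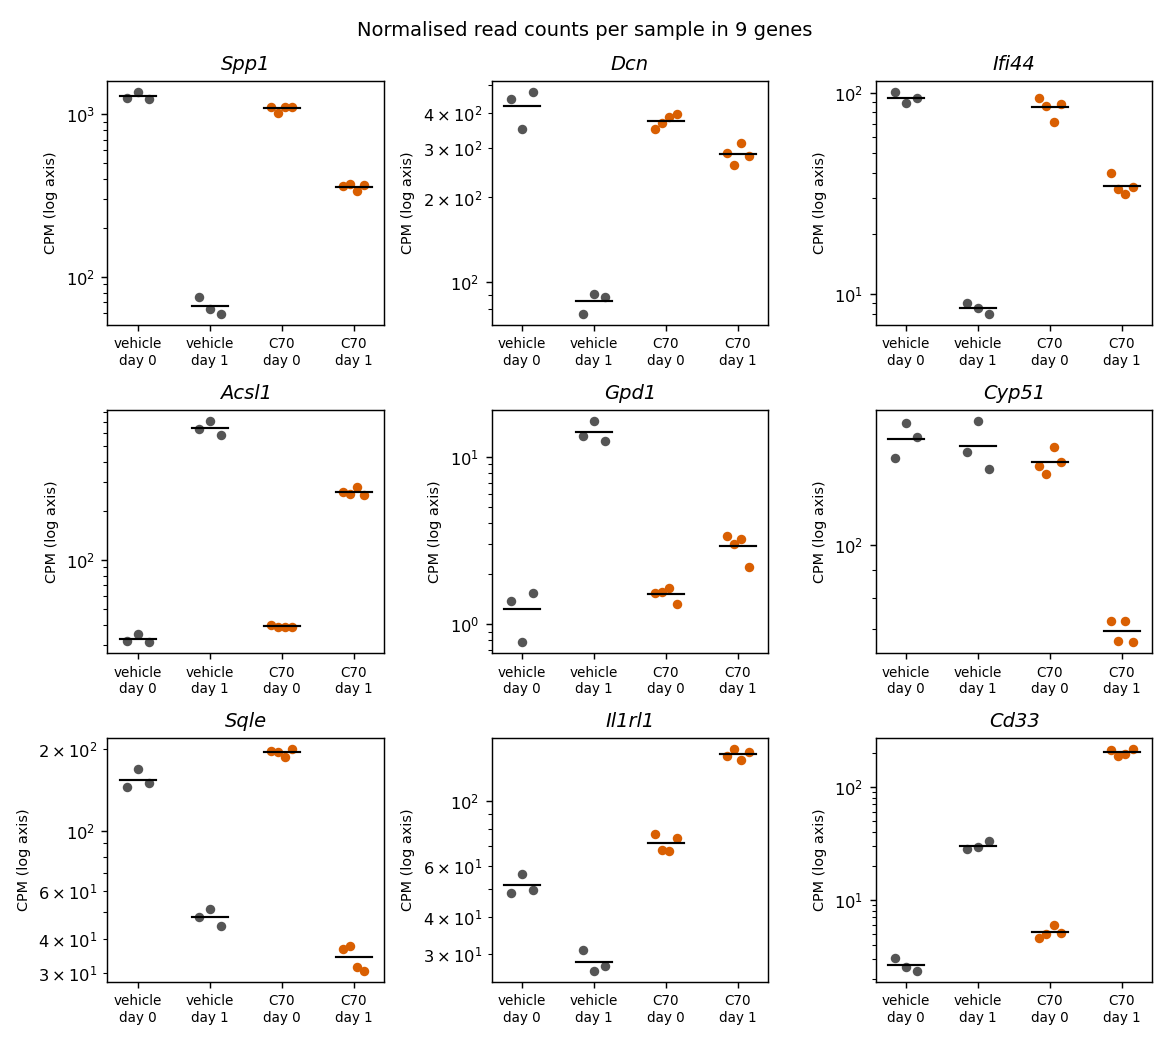
CPM (vertical log axis) of 9 genes in the 14 samples, grouped by vehicle or C70 and by day, with 1 point per sample and a bar at the group mean. In Spp1, Dcn and Ifi44 the day 1 C70 samples lie above day 1 vehicle, in Acsl1, Gpd1, Cyp51 and Sqle below, and in Il1rl1 and Cd33 above.

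Interferon-stimulated genes, which defend cells against viruses and present antigens, fell steeply at induction and less so after C70. Of 37 in the table, 21 had an interaction above 0 and 1 below, with a median response of -2.31 in vehicle and -1.67 after C70. In vehicle 36 of them fell and after C70 34. Ifi44 (GRCm38 chr3:151730922-151749960) had 101, 88.3 and 93.9 CPM at day 0 and 9.08, 8.59 and 8.01 at day 1 in vehicle, against 93.9, 86.2, 71.7 and 87.7 at day 0 and 39.9, 33.2, 31.3 and 33.97 at day 1 after C70. The arms overlapped at day 0 and were apart at day 1, with an interaction of 2.17 (SE 0.19, adjusted P = 6.95e-10). Ifit2, which blocks translation of foreign RNA, was already lower after C70 at day 0 (36.5 to 40.04 CPM against 58.3 to 62.3) and higher at day 1 (2.58 to 4.93 against 1.08 to 1.96), giving 1.82 (SE 0.23, adjusted P = 8.56e-07). Stat2, part of the transcription factor that switches these genes on, crossed in the same way: 222, 212 and 217 CPM at day 0 and 53.3, 46.4 and 41.5 at day 1 in vehicle, against 168, 189.7, 157 and 172 at day 0 and 71.6, 73.3, 60.7 and 68.2 at day 1 after C70. Ifi203, a nuclear interferon-inducible protein, had an interaction of 1.10 (SE 0.13, adjusted P = 4.28e-07). At day 0, 8 of the 37 genes were lower and 3 higher in C70, and at day 1 C70 was higher in 19 and lower in 0. The single member below 0, named after its values were seen, was Ifi27 (interaction -0.53, SE 0.15, adjusted P = 0.0123). C70 samples of Ifi27 were above vehicle at both days. They had 221 to 244 CPM against 117 to 131 at day 0 and 95.5 to 114 against 71.2 to 85.6 at day 1. Between 12 and 26 of the 37 were above 0 in the other settings and 14 when day 1 vehicle replicate 3 was left out, apart from 8 in a test against the fold threshold itself.

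Receptors and secreted proteins were among the turned genes. Il1rl1, the receptor of interleukin 33, fell in vehicle and rose after C70: 48.5, 56.4 and 49.8 CPM at day 0 and 31.03, 26.3 and 27.2 at day 1 in vehicle, against 76.9, 67.8, 67.2 and 74.9 at day 0 and 142, 150.2, 138 and 147 at day 1 after C70. Its responses were -0.87 in vehicle and 1.01 after C70, and the interaction was 1.88 (SE 0.089, adjusted P = 1.77e-15). Apod, a lipid carrier of the lipocalin family, did likewise, from 148–219 to 66.1–72.8 CPM in vehicle and from 298–384 to 459.6–533 after C70. The C70 samples were above vehicle at both days. Clca3a1, a chloride channel accessory protein, had an interaction of 1.34 (SE 0.096, adjusted P = 1.96e-11), and its arms overlapped at day 0. Layn, a hyaluronan receptor, had 1.09 (SE 0.13, adjusted P = 4.24e-07). It was lower after C70 at day 0, with 26.1 to 31.1 CPM against 34.1 to 37.2. Of 28 turned genes, 25 had an interaction above 0. In the chemokine and NF-kB list, 6 of 19 were above 0 and 1 below, among them Vcam1 (0.48) and the interleukin 1 receptor Il1r1, which rose after C70 only (-0.19 in vehicle and 0.49 after C70).

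Adipocyte genes were induced in both arms, and for part of them the rise was smaller after C70. Of 34 PPARγ targets and adipocyte markers, 10 had an interaction below 0 and 7 above, with a median response of 2.81 in vehicle and 2.26 after C70. In vehicle 29 of them rose and after C70 30. Acsl1, which activates long-chain fatty acids (GRCm38 chr8:46471037-46536051), had 32.1, 35.2 and 31.3 CPM at day 0 and 629, 713 and 580.2 at day 1 in vehicle, against 39.8, 38.96, 39.02 and 38.9 at day 0 and 261, 254, 278 and 250.1 at day 1 after C70. C70 samples were slightly higher at day 0 and well below every vehicle sample at day 1, an interaction of -1.55 (SE 0.08, adjusted P = 1.09e-14). Gpd1, which makes glycerol 3-phosphate for triglycerides, rose from 0.779–1.53 to 12.3–16.4 CPM in vehicle and from 1.31–1.64 to 2.19–3.34 after C70, at low counts (interaction -2.52, SE 0.31, adjusted P = 4.06e-07). The lipoprotein lipase gene Lpl reached 3669, 3837 and 3799.6 CPM at day 1 in vehicle and 2402, 2357, 2476 and 2488 after C70, from 1169.6 to 1291 and 1377 to 1429 at day 0. The fatty acid carriers Fabp5 and Fabp4 had interactions of -1.07 (SE 0.13, adjusted P = 5.8e-07) and -0.49 (SE 0.11, adjusted P = 0.00251), and Adipoq, the hormone adiponectin, -1.47 (SE 0.51, adjusted P = 0.0408). Adipoq rests on 4 to 10 counts per library at day 0 and lost its call when any 1 of 8 libraries was left out.

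Other members rose more after C70. Angptl4, a secreted inhibitor of lipoprotein lipase, started lower and caught up: 64.6, 57.8 and 50.8 CPM at day 0 and 626, 694 and 753 at day 1 in vehicle, against 37.97, 35.7, 35.5 and 36.1 at day 0 and 731, 697, 733 and 769.9 at day 1 after C70. Day 1 samples of the arms overlapped, and the enhanced rise (interaction 0.75, SE 0.096, adjusted P = 8.37e-07) went with a lower day 0 level. Pdk4, the kinase that turns off pyruvate dehydrogenase, instead was slightly higher at day 0 (57.7 to 61.9 against 51.8 to 57.01 CPM) and the difference grew, with 152 to 173 CPM in vehicle and 269.9 to 316 after C70 at day 1 (interaction 0.75, SE 0.098, adjusted P = 1.18e-06).

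Some of the most blunted rises started near 0. Mc5r, a melanocortin receptor, had 0 counts in every day 0 vehicle library and 0 to 4 in day 0 C70, so no fold is given. At day 1 it was at 12.9, 15.7 and 13.3 CPM in vehicle and 5.19, 4.48, 4.81 and 4.62 after C70. Lgals12, an adipocyte galectin, had at most 7 counts per library at day 0 in either arm. Its day 1 level was 2.07 to 3.56 CPM in vehicle against 0.243 to 1.41 after C70. The interaction call of Lgals12 was lost when a single library was left out. G0s2, an inhibitor of triglyceride breakdown, was higher after C70 at day 0 (0.794 to 1.55 against 0.242 to 0.416 CPM) and lower at day 1 (7.40 to 9.85 against 22 to 34.2). Its day 0 levels rest on 6 to 8 counts per library in vehicle and 16 to 30 after C70. In 11 of the 1663 genes the lowest group mean was under 10 counts.

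Genes for making fatty acids and triglycerides showed the interaction below 0 in 11 of 28 and above 0 in 1. Agpat2, which adds the second acyl chain on the way to triglyceride, had 23.5, 19.3 and 21.2 CPM at day 0 and 106, 125 and 107 at day 1 in vehicle, against 28.1, 27.8, 25.6 and 24.7 at day 0 and 52.6, 54.7, 55.8 and 53.3 at day 1 after C70, an interaction of -1.37 (SE 0.12, adjusted P = 1.81e-09). Gpat3, which adds the first, and Lpin1, the phosphatidate phosphatase, were also blunted rises (interactions -1.15, SE 0.14, adjusted P = 6.07e-07, and -0.64, SE 0.093, adjusted P = 6.56e-06). The elongase Elovl6 had no called response in vehicle (0.27) and fell after C70 (-0.68), from 34.9–43.3 to 22–26.4 CPM. Fatty acid synthase, Fasn, rose to 844 to 949.9 CPM in vehicle and 782 to 816 after C70, and its interaction of -0.37 (SE 0.12, adjusted P = 0.0275) lost the call when any 1 of 4 libraries was left out. Gpam and Acaca, the mitochondrial acyltransferase and acetyl-CoA carboxylase, gave -0.07 (SE 0.11, adjusted P = 0.714) and -0.06 (SE 0.12, adjusted P = 0.795). The 1 member above 0 was Acacb (0.44), named after its value was seen, and it lost the call without replicate 3 of day 0 vehicle.

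Among 31 adipogenic factors, 3 had an interaction above 0 and 2 below (1 below without replicate 1 of day 0 vehicle). These counts are near the background of 8.68% above and 5.23% below among all genes. The median responses of the arms were 0.99 and 1.01. Pparg itself was lower after C70 at both days (50.4, 54.8 and 54.97 CPM at day 0 and 78.1, 83.4 and 78.6 at day 1 in vehicle, against 40.3, 35.3, 36.9 and 38.5 at day 0 and 51.9, 52.6, 54.6 and 52.5 at day 1 after C70). Its rise did not differ detectably, with an interaction of -0.10 (SE 0.08, adjusted P = 0.438), although every C70 sample was below every vehicle sample of its day. Cebpa was different: C70 samples were higher at day 0 (14.6 to 17.8 against 11.1 to 13.5 CPM) and lower at day 1 (73.5 to 78.4 against 98.2 to 118), an interaction of -0.90 (SE 0.13, adjusted P = 8.21e-06). Stat5a passed the adjusted P value but not the fold change threshold (interaction -0.31, SE 0.053, adjusted P = 7.04e-05). Klf6 fell in both arms and less after C70 (interaction 0.52, SE 0.10, adjusted P = 0.000531). Dlk1, the preadipocyte marker Pref1, fell by 1.32 in vehicle and 1.12 after C70, and its interaction was 0.21 (SE 0.13, adjusted P = 0.293). Yet every C70 sample of Dlk1 was above every vehicle sample of its day. Its CPM were 2746 to 3012 against 2470 to 2666 at day 0 and 1299 to 1424.5 against 1018 to 1034 at day 1. At day 2 they were 301 to 331 against 159 to 167. In the preadipocyte and anti-adipogenic list, 11 of 33 genes were above 0 and 2 below, or 1 below without that same library. Of 42 Wnt and TGF-beta or BMP genes, 12 were above 0 and 4 below, led by the secreted Wnt modulator Dkk3, which fell in vehicle (12.7–18.97 to 5.34–6.41 CPM) and had 22.5 to 25.3 and 20.96 to 25.1 CPM at days 0 and 1 after C70.

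Cholesterol synthesis genes, most of which SREBP2 activates, had the lowest median interaction of the lists, -0.58. Of 25 in the table, 17 had an interaction below 0 and 1 above. The list had a median response of -1.01 in vehicle and -1.48 after C70. At day 0, 4 were higher in C70 and 0 lower, whereas at day 1 C70 was lower in 12 and higher in 2. Msmo1 and Sqle, which encode a sterol oxidase and squalene epoxidase, were enhanced falls (interactions -1.02, SE 0.098, adjusted P = 6.07e-09, and -0.83, SE 0.089, adjusted P = 5.14e-08). Sqle (GRCm38 chr15:59315077-59331192) had 145, 168 and 149 CPM at day 0 and 48.2, 51.6 and 44.7 at day 1 in vehicle, against 197, 195, 187 and 199.9 at day 0 and 36.8, 37.7, 31.6 and 30.5 at day 1 after C70. Its C70 samples were above vehicle at day 0 and below at day 1. Cyp51, the lanosterol demethylase, had a response of -0.04 in vehicle and fell after C70: 145, 168 and 158 CPM at day 0 and 148, 169.7 and 138 at day 1 in vehicle, against 139.9, 135, 152 and 142 at day 0 and 72.3, 66.4, 72.4 and 66.2 at day 1 after C70. Its interaction was -0.99 (SE 0.089, adjusted P = 1.87e-09). Acat2, which makes acetoacetyl-CoA, rose in vehicle only (0.93 in vehicle and 0.01 after C70). The exception was Dhcr7, which carries out a late step of the pathway and rose more after C70, to 118, 133, 133 and 127 CPM against 69.1, 66.5 and 61.6 (interaction 0.67, SE 0.09, adjusted P = 1.8e-06).

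Genes of the integrated stress response and of amino acid transport, synthesis and charging, many of them ATF4 targets, were below 0 in 13 of 36 and above 0 in 3. Slc7a1, the cationic amino acid transporter, went from 112–117 to 29.3–34.2 CPM in vehicle and from 132–142 to 13.8–15.6 after C70 (interaction -1.34, SE 0.15, adjusted P = 6.96e-08). Psat1 of the serine pathway and Mthfd2 of mitochondrial folate metabolism had -0.79 (SE 0.088, adjusted P = 9.59e-08) and -0.80 (SE 0.091, adjusted P = 1.62e-07). Pycr1, a proline synthesis enzyme, went the other way: it fell in vehicle (23.4–29.8 to 9.95–10.1 CPM), while the C70 samples had 22.7 to 27.1 CPM at day 0 and 24.1 to 27.5 at day 1, overlapping ranges (interaction 1.46, SE 0.11, adjusted P = 4.98e-11).

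**Figure D4:**
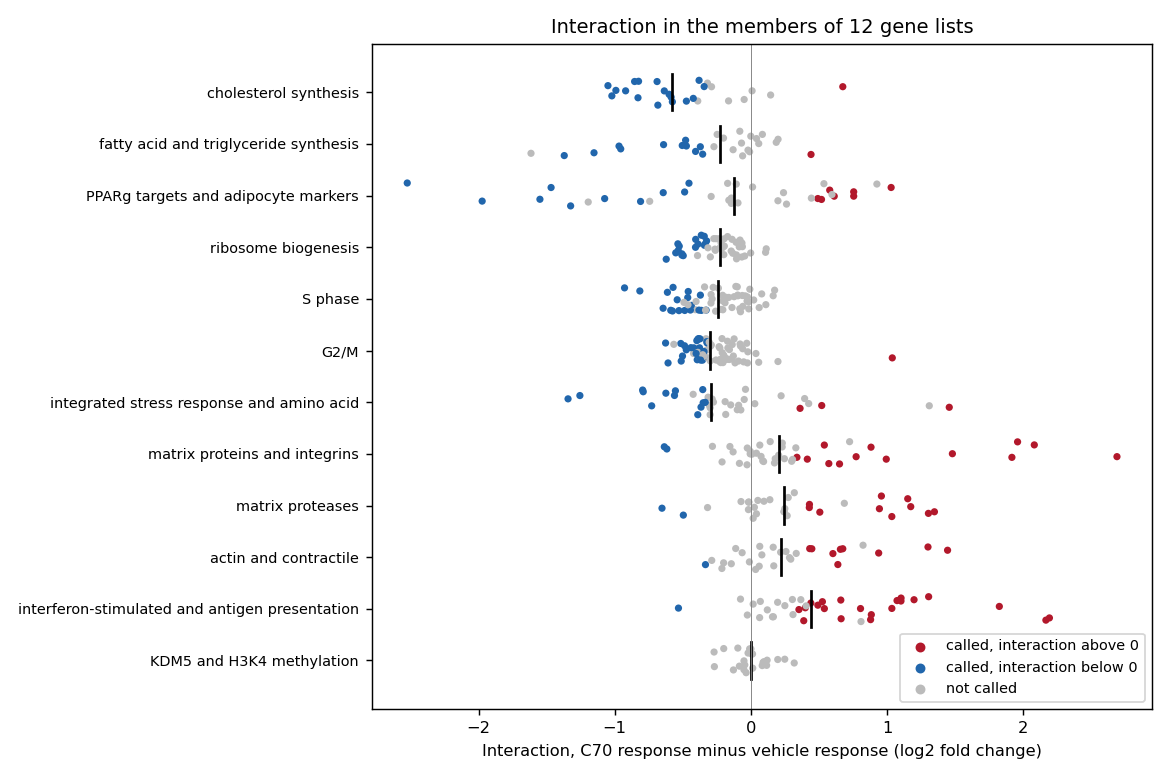
Interaction log2 fold change (horizontal axis) of every member in the table for 12 gene lists, 1 point per gene, red and blue where called above or below 0 and grey where not, with a black bar at the list's median. Cholesterol synthesis points lie mostly below 0 and interferon-stimulated points mostly above.

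Among cell cycle genes, the called interactions were mostly below 0, though most members were not called. Lists are to be read against the background of 8.68% above 0 and 5.23% below. For S phase, 18 of 59 genes had an interaction below 0 and 0 above, with a median response of -0.14 in vehicle and -0.33 after C70. For G2/M, 23 of 74 were below and 1 above, with 0.30 and 0.04. In the vehicle arm the mitotic kinase Plk1 rose from 23.7, 28.01 and 20.1 to 33.5, 35.6 and 36.7 CPM. After C70 it was at 25.6, 25.7, 23.8 and 26.6 and 23.1, 24.9, 27.5 and 23.02, which overlap, and the interaction was -0.61 (SE 0.13, adjusted P = 0.00105). Tacc3, a spindle protein, and Rrm2, the ribonucleotide reductase subunit, had -0.51 (SE 0.10, adjusted P = 0.000548) and -0.65 (SE 0.099, adjusted P = 1.58e-05). Among replication genes Mcm3 and Mcm5 fell in both arms and further after C70 (interactions -0.57, SE 0.09, adjusted P = 2.53e-05, and -0.61, SE 0.11, adjusted P = 9.04e-05). The 1 G2/M gene above 0 was Psrc1, a microtubule regulator, which turned: 60.7, 59.6 and 61.5 CPM at day 0 and 39.1, 38.3 and 35.9 at day 1 in vehicle, against 58.5, 53.1, 65.8 and 57.5 at day 0 and 79.3, 74.5, 72.6 and 74.3 at day 1 after C70. G2/M members sat near the fold change threshold: their count below 0 was 12 without day 0 vehicle replicate 3, 13 without day 1 vehicle replicate 3, 15 when replicate 1 of day 0 vehicle or replicate 2 of day 1 C70 was left out, 7 with limma on log2 CPM, 37 with limma voom and sample weights, and 0 in the test against the fold threshold.

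Regulators upstream of the cycle moved in both directions, with 8 of 35 cyclin, CDK, RB and E2F genes below 0 and 4 above. The growth regulator Myc rose from 18.5–24.01 to 95.7–113 CPM in vehicle and from 23.3–26.8 to 74.7–79.2 after C70 (interaction -0.67, SE 0.089, adjusted P = 2.15e-06). Ccne1 and Ccne2, the E cyclins of the G1/S step, had -0.57 (SE 0.11, adjusted P = 0.00025) and -0.82 (SE 0.16, adjusted P = 0.000339), and Ccnb1, the mitotic cyclin, -0.50 (SE 0.13, adjusted P = 0.00503). A pair of CDK inhibitors went the other way. Cdkn1a, or p21, had 221, 217 and 217 CPM at day 0 and 242, 232 and 233 at day 1 in vehicle, against 214, 205, 208 and 212 at day 0 and 317, 316, 317 and 315 at day 1 after C70, so that a rise was called after C70 only (interaction 0.48, SE 0.071, adjusted P = 9.79e-06). Cdkn2b, or p15, fell less after C70 (interaction 0.62, SE 0.11, adjusted P = 0.000102). Ccnd1 was called at 0.33 (SE 0.11, adjusted P = 0.0327) but lost the call without any 1 of 8 libraries. Ribosome biogenesis genes were below 0 in 16 of 48 and above in 0, with a median response of 0.55 in vehicle and 0.31 after C70. Nop56 and Ddx21, which act in the nucleolus, had -0.62 (SE 0.085, adjusted P = 2.68e-06) and -0.55 (SE 0.076, adjusted P = 2.93e-06). With a fold change over 1.5, the count was 1. Oxidative phosphorylation had 8 of 77 below 0 and 0 above. That count was 2 without day 1 vehicle replicate 2, 4 without day 0 vehicle replicate 3, day 0 C70 replicate 3 or day 1 C70 replicate 1, and 5 without day 0 C70 replicate 1 or 2, day 1 C70 replicate 2 or day 1 vehicle replicate 3. The mitochondrial ribosome had 4 of 77 below 0, about the background of 5.23%, and 2 to 7 with 1 library left out. Cytochrome c, Cycs, had the lowest value of the oxidative phosphorylation genes (interaction -0.81, SE 0.11, adjusted P = 1.28e-06), and Mrpl20 had -0.50 (SE 0.12, adjusted P = 0.00341).

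**Figure D5:**
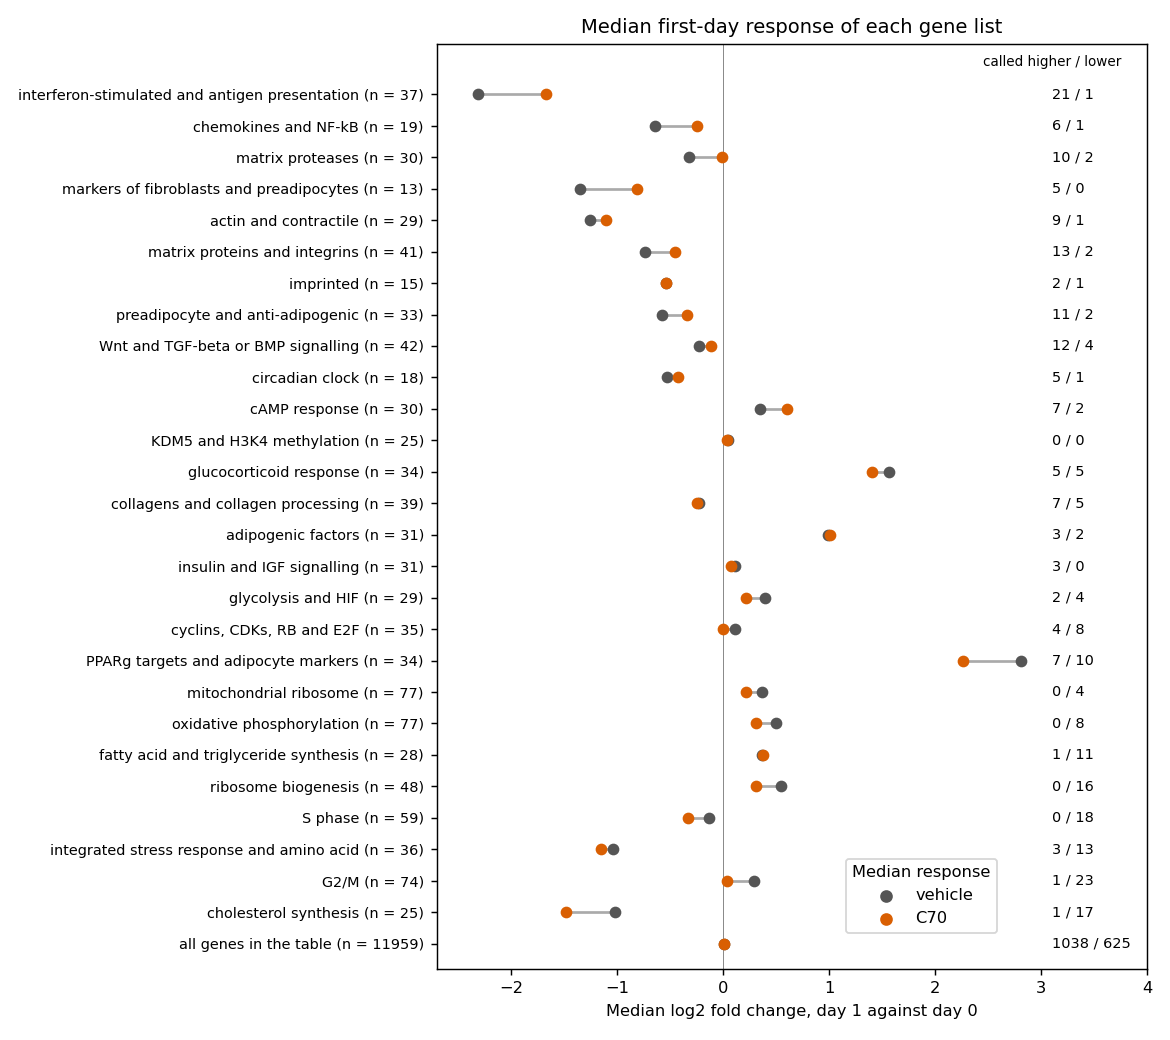
Median log2 fold change from day 0 to day 1 (horizontal axis) of each gene list in vehicle (grey) and after C70 (orange), with the number of members called above and below 0 in the interaction at the right. The medians of interferon-stimulated genes are nearer 0 after C70, and those of cholesterol synthesis genes further from 0.

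A set of genes rose in both arms and more after C70. Cd33, a sialic acid-binding surface receptor, had 3.06, 2.55 and 2.37 CPM at day 0 and 27.97, 29.3 and 33.2 at day 1 in vehicle, against 4.63, 5.02, 5.96 and 5.05 at day 0 and 211, 186, 194 and 215 at day 1 after C70, an interaction of 1.79 (SE 0.19, adjusted P = 2.76e-08). C70 samples were above vehicle at both days. The other leading enhanced rises were Ctla2a, a cathepsin inhibitor, Crocc2, a rootletin relative, and Masp1, a protease of the complement lectin pathway. Ctla2a reached 60.4 to 68.4 CPM at day 1 after C70 and 14.2 to 16.3 in vehicle. Crocc2 began higher after C70 (17.2 to 21.1 against 5.80 to 7.85 CPM) and ended at 217 to 268 against 30.8 to 33.9 (interaction 1.38, SE 0.14, adjusted P = 1.57e-08). Masp1 had an interaction of 1.15 (SE 0.1, adjusted P = 7.73e-10). Among gained rises, Antxr1, the anthrax toxin receptor of the cell surface, went from 297–323 to 730.3–747 CPM after C70, with a response of 0.25 in vehicle. Rarres2, the adipokine chemerin, Nmnat2, an NAD synthesis enzyme, and Galm, galactose mutarotase, had 1.21 (SE 0.21, adjusted P = 9.81e-05), 1.06 (SE 0.098, adjusted P = 2.68e-09) and 1.00 (SE 0.078, adjusted P = 8.66e-11).

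Glucocorticoid and cAMP response genes, which the cocktail activates, gave mixed counts. Of 34 glucocorticoid response genes, 5 were above 0 and 5 below. Hsd11b1, which regenerates active glucocorticoid, differed already before induction: 1.17, 1.40 and 0.511 CPM at day 0 and 7.35, 7.09 and 5.51 at day 1 in vehicle, against 15.2, 18.6, 19.01 and 17.7 at day 0 and 19.4, 18.7, 21.9 and 20.3 at day 1 after C70. C70 samples were higher at both days, and the vehicle arm rose toward them (interaction -2.51, SE 0.24, adjusted P = 5.41e-09). Snai2, a zinc finger repressor, fell less after C70 (interaction 0.77, SE 0.08, adjusted P = 2.76e-08). Of 30 cAMP response genes, 7 were above 0 and 2 below, or 4 above without replicate 3 of day 0 C70 or replicate 4 of day 1 C70, and 1 below without replicate 3 of day 0 vehicle, replicate 2 of day 1 vehicle or replicate 1 of day 1 C70. Among those above 0 were Rgs2, a brake on G protein signalling (interaction 0.66, SE 0.11, adjusted P = 3.65e-05), and the AP-1 subunit Junb (interaction 0.45, SE 0.095, adjusted P = 0.000956). Ptch1, the Hedgehog receptor, had been raised by C70 at day 0 (76.1 to 78.4 against 26.5 to 28.3 CPM) and had 47.5 to 48.4 at day 1 after C70 and 30.2 to 32.9 in vehicle, an interaction of -0.87 (SE 0.10, adjusted P = 2.1e-07). The imprinted gene Peg10 rose from 211–233 to 2049–2476 CPM in vehicle and from 127–146 to 789–893 after C70 (interaction -0.66, SE 0.16, adjusted P = 0.00276).

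A day later, in libraries that enter the interaction only through the shared estimate of spread, the C70 effect was read again in the same lists. C70 against vehicle was lower at day 2 in 21 of 25 cholesterol synthesis genes, 19 of 28 for fatty acids and triglycerides, 64 of 74 for G2/M and 40 of 77 for oxidative phosphorylation, and it was higher in 0, 0, 1 and 0 of them, against 13.6% lower and 16.9% higher among all genes. Of 37 interferon-stimulated genes 23 were higher and 1 lower, and of 41 matrix protein and integrin genes 27 were higher and 3 lower. Ribosome biogenesis genes, 16 of which were lower at day 1, had 3 of 48 higher and 1 lower at day 2. Circadian clock genes went from 7 higher and 2 lower of 18 at day 1 to 0 higher and 3 lower at day 2. Gpd1 had 741, 766 and 735 CPM in vehicle and 176, 225, 174 and 159.9 after C70 at day 2, and Acsl1 6599.5, 6594 and 6705 and 3066, 3332, 3163 and 3122. Both groups were well apart. Spp1 was at 45.5, 44.6 and 45.2 CPM in vehicle and 328, 318, 326 and 325 after C70. Dhcr7, which C70 raised at day 1, did not stay above vehicle (145 to 153 against 172 to 191 CPM at day 2, log2 fold change -0.28, SE 0.059, adjusted P = 0.000255, under the fold threshold). This remark was chosen after its day 2 values were seen.

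None of the 25 KDM5 and H3K4 methylation genes in the table was called in the interaction by edgeR's quasi-likelihood test, and 1 was with the adjusted P value alone. That gene was Kdm5b, at 196, 195 and 208 CPM at day 0 and 135, 139 and 137 at day 1 in vehicle, and 185, 194, 191 and 195 and 148, 163, 154 and 157 after C70 (interaction 0.25, SE 0.074, adjusted P = 0.0169). Kdm5a and Kdm5c had 0.10 (SE 0.13, adjusted P = 0.66) and -0.04 (SE 0.093, adjusted P = 0.847). At an unadjusted P value under 0.05 there were 4, and DESeq2 called 0. Of all 11959 genes, 2379 passed the adjusted P value alone and 3716 the unadjusted one, larger shares than in this list. Among smaller counts, insulin and IGF signalling had 3 of 31 above 0 and 0 below (1 below with any 1 of 4 libraries left out), glycolysis 2 and 4 of 29 (the latter 10 without day 0 vehicle replicate 2 or day 1 vehicle replicate 3) and imprinted genes 2 and 1 of 15 (the former 1 with any 1 of 7 libraries left out), where the background was 8.68% above and 5.23% below. Circadian clock genes had 5 above and 1 below of 18, with 3 above when day 0 vehicle replicate 3 or day 1 vehicle replicate 2 was left out and 2 below with any 1 of 4 others left out, and none of 24 germline genes is in the table. Cd68, the macrophage marker that C70 had raised at day 0, went to 13.8, 13.6, 13.9 and 15.1 CPM at day 1 after C70 and 2.01, 1.88 and 1.74 in vehicle, and it is the reverse of most turned genes (interaction -0.95, SE 0.23, adjusted P = 0.00368). Cd14 went the other way, with a fall that was smaller after C70 (interaction 0.63, SE 0.20, adjusted P = 0.0252), to 3.46 to 5.16 CPM against 2.21 to 2.87 in vehicle. It lost the call without replicate 3 of day 0 vehicle, replicate 2 of day 1 vehicle or replicate 4 of day 1 C70. The macrophage markers Csf1r, Adgre1 and Ptprc are not among the 11959 genes. Of 10 endothelial markers 1 is in the table, Flt1, and Pecam1, Cdh5 and Kdr are not. Of 13 skeletal muscle markers 1 is there, Des, and Myod1 and Myog are not. Both were called above 0 in the interaction, Des not without replicate 1 or 2 of day 0 vehicle or replicate 1 or 3 of day 1 vehicle. The endothelial marker ranged 30.1 to 40.9 CPM at day 0 and 10.7 to 15.6 at day 1 in vehicle, against 42.8 to 47.2 and 23.9 to 28.8 after C70, and the muscle marker 4.18 to 5.61 and 1.83 to 2.58 against 8.69 to 10.00 and 5.45 to 7.24. Of 16 osteoblast and chondrocyte markers 5 are in the table, and 2 were above 0, Spp1 and Sox5, while Sp7, Bglap and Acan are not there. Sox5 lost the call when any 1 of 7 libraries was left out. The summed level of the 5 was 1449.9 to 1555 CPM at day 0 and 195 to 218 at day 1 in vehicle. After C70 it was 1211 to 1303 and 480.4 to 521. Of this, Spp1 alone held 1248 to 1372 and 59.4 to 75.6 CPM in vehicle and 1021 to 1113 and 337 to 371 after C70. The interaction was not called for 3 of the 5. The part of other cell types in these results was not tested.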

How the data were processed

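The deposited table, although named as normalized, holds whole-number counts per gene, and per the processing notes the authors aligned reads to GRCm38 with STAR 2.7.2a and analysed them with edgeR 3.26.8, where the methods of the study give a later version. The counting program, its use of strand and the gene filter are not given in the sources used here. Of the 101 genes named with values, 39 overlap a gene on the other strand and 3 (Ccnb1, Cycs and Ifi203) have a named pseudogene, so some of their counts may be shared. Every value column matched a sample. Counts were scaled by TMM (factors 0.898 to 1.08) and fitted in R 4.3.3 with edgeR 4.0.16, quasi-likelihood, with the means of all 8 groups of the 29 samples in 1 model. P values were adjusted by Benjamini-Hochberg over 11959 genes, and a call needed a log2 fold change above 0.32 in size with the adjusted P value below 0.05. The model was tested on simulated data. The text names the 4 most changed genes of each response class that pass the rule's conditions and members of the gene lists, and others where it says so. Members and lists were chosen with earlier results of these data known. The vehicle and C70 responses share no samples, but each shares samples with the interaction, as do the C70 effects at days 0 and 1. Gene coordinates are from GENCODE on GRCm38. Alternatives were DESeq2 1.42.0, limma 3.58.1, other scalings, thresholds and filters, a replicate block, the 14 samples alone and each library left out.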

Additional observations from a re-analysis of the deposited data

Results flagged for a closer look

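The 1663 genes whose first-day response differed between the arms passed a test of that difference. For 7 of the genes named here the C70 effect was called at day 0 in 1 direction and at day 1 in the other, and the interaction tests that difference. Upward crossings, lower with C70 before induction and higher after it, were found for Lum (1.96 on the log2 scale), Ifit2 (1.82), Plat (1.15) and Stat2 (0.88). Downward crossings were found for G0s2 (-3.51), Cebpa (-0.90) and Sqle (-0.83). The value of G0s2 rests on low counts, 6 to 8 per library in day 0 vehicle.

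Some C70 samples stood apart from the other 3 of their group. At day 0, Spp1 was at 1021 CPM in replicate 2 against 1108 to 1113 in the others, and Itga6 at 76.3 in the same replicate against 70.6 to 71.2. Replicate 1 had 1985 CPM of Lox against 2058 to 2071 and 39.8 of Acsl1 against at most 39, and replicate 3 had 82.2 of Masp1 against 75.7 to 75.9. At day 1, Apod was at 460 CPM in replicate 2 against 525 to 533, and Mcm3 at 29.7 in replicate 3 against at most 27.2. These are 7 of 202 groups of 4 examined (3.47%), and chance gives about 1 in 20.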

How the results depend on the processing

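All 29 alternatives kept the sign of every gene called in both settings. Of 93 called genes named here, 69 kept the call in every alternative, none reversed, and 8 lost it when a single library was left out (Adipoq, Fasn, Ccnd1, Acacb, Cd14, Des, Sox5 and Lgals12). The total of 1663 was 1366 to 1712 with 1 library left out, 1719 with DESeq2 and 1870 with the 14 samples alone. A replicate block gave 1633 calls, 1615 of them shared. Replicate numbers do not pair the samples: 19 correlations of same-numbered samples were -0.0805 to 0.116. Calls were above 0 in 62.4%, in 55.0% after quantile normalization, 55.5% with library totals and 67.7% with upper quartile factors, and the median over all genes moved by at most 0.0265.

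Thresholds moved the counts most. With the adjusted P value alone there were 1053 genes below 0 and 684 lower at day 2, C70 effects in 2366, 4865 and 6064 genes at days 0, 1 and 2, 657 blunted rises, 264 enhanced rises, 194 enhanced falls, 119 turned, 151 gained falls and 5 with neither response. A fold change over 1.5 gave 668 (483 above 0, 185 below), responses of 4063 in vehicle and 3799 after C70, C70 effects of 392, 1091 and 1740, 108 blunted and 43 enhanced rises, 332 blunted and 23 enhanced falls, 3 turned, 64 gained rises and 24 gained falls. Of these the vehicle response was larger in 483, and day 2 was higher in 350 and lower in 87. A test against the fold threshold itself gave 476 (344 above, 132 below), C70 effects of 322, 1177 and 2189, 90 blunted and 40 enhanced rises, 240 blunted and 17 enhanced falls, 8 turned, 44 gained rises, 19 gained falls and 18 with neither, with the vehicle response larger in 348, day 2 higher in 286 and lower in 76. Without the 25% of genes with the lowest mean, C70 effects were 594 and 1630 at days 0 and 1, 16 genes turned and 54 were gained falls, in part because fewer genes were tested.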
